A study of Mus musculus with 6 samples.

Results

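Transcripts of 7 genes for small cytosolic calcium-binding proteins were followed in 6 RNA-seq libraries of mouse neurons: parvalbumin (Pvalb), calbindin (Calb1), calretinin (Calb2), secretagogin (Scgn) and the neuronal calcium-binding proteins Necab1, Necab2 and Necab3. Members were found by gene name, and all 7 were present among the 55414 genes measured. The neurons came from the medial mammillary nucleus of the hypothalamus, whose cells are mostly glutamatergic and project to the anterior thalamus. One group is labelled PV-positive (3 libraries, numbered 6, 7 and 8) and the other Drd2-positive (3 libraries, numbered 1, 2 and 3), after the D2 dopamine receptor. All were from male animals, and fluorescent cells were drawn from papain-treated slices with glass electrodes. The sources used here do not give strain, age, the alleles and driver behind the fluorescence, or how many cells and animals each library holds. The libraries of a group are described as biological replicates.

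The 7 genes were put together with the PV against Drd2 contrast already known: the set was chosen by gene family and by measured FPKM values of these libraries, and which of the 7 genes weighed in that choice is not recorded, so the contrast counts as used for all of them. Further, Pvalb is the gene that gives the PV group its label. Their levels and differences between the groups are therefore a description, and no test is read from them. All log2 differences are PV minus Drd2.

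Calcium that enters a neuron through channels is bound within moments by proteins of the EF-hand family, which carry a loop that holds the ion. Parvalbumin binds calcium slowly and also binds magnesium, calbindin binds it fast, and calretinin binds it fast and cooperatively, so each shapes the calcium signal differently. Secretagogin is thought to act more as a sensor and is known from pancreatic islets and neuroendocrine cells, while the Necab proteins join an EF-hand region to a domain related to bacterial monooxygenases and are found mainly in neurons. In the brain these genes are widely used as markers that split neurons of 1 region into classes.

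The promoters of Pvalb and Necab2 are shown because these are the genes of each side, high in PV and high in Drd2, for which a RefSeq promoter was at hand; 4 of the 7 genes matched (Pvalb, Scgn, Necab2 and Necab3), and Calb1, Calb2 and Necab1 are named only. Each line gives the 250 bases before the annotated start on the gene's own strand, from RefSeq on GRCm38.p6, with motif matches in capitals. The Pvalb window is chr15:78206401-78206650, minus strand, and belongs to the outer of 2 annotated starts. The Necab2 window is chr8:119446469-119446718, plus strand.
Pvalb: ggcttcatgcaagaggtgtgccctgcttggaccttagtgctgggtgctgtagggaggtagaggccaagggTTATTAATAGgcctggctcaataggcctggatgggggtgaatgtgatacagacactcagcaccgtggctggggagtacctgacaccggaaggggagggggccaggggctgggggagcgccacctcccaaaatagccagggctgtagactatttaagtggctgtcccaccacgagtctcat
Necab2: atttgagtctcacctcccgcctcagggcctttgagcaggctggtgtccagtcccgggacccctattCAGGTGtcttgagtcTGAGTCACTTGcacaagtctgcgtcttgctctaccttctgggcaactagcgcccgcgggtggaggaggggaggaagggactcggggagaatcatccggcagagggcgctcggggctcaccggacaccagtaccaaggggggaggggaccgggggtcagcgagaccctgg
The capitals in Pvalb mark 1 match to the MEF2 motif, 180 to 171 bases before the start. The capitals in Necab2 mark 2 E-boxes (CANNTG) and 1 AP-1 motif (TGANTCA), which shares its last bases with the second E-box. Both strands were searched for 6 motifs over 32851 promoter windows of the same length. The MEF2 motif was held by 2.92% of all windows, the E-box by 66.2% and the AP-1 motif by 6.75%. The TATA box (TATAAA, 12.4% of windows), the cyclic AMP element (TGACGTCA, 1.55%) and the homeodomain core (TAATTA, 4.84%) had no match in either printed window. For these only the exact letters were searched, so variant forms, such as other TATA-type sequences, were not looked for. GC content was 58.4% for the printed Pvalb window and 64.0% for Necab2, against a median of 52.4% over all windows. The window of the other Pvalb start, not printed, had 71.6% GC, 1 E-box and no MEF2 match. Which start these neurons use was not tested. These matches describe letters only and were not tied to the expression values.

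The 7 genes lie on 5 chromosomes in GENCODE M21, the GRCm38 annotation used for positions and exon lengths. Pvalb (ENSMUSG00000005716) spans 78191114 to 78206400 on chromosome 15 and Scgn (ENSMUSG00000021337) 23953456 to 23991214 on chromosome 13. Necab3 (ENSMUSG00000027489) spans 154544399 to 154558890 on chromosome 2. Calb1 (ENSMUSG00000028222, 15881264 to 15908064) and Necab1 (ENSMUSG00000040536, 14952245 to 15149794) are neighbours on chromosome 4, 0.731 Mb apart with 1 protein-coding gene between them. Calb2 (ENSMUSG00000003657, 110137502 to 110168210) and Necab2 (ENSMUSG00000031837, 119446719 to 119472640) share chromosome 8, 9.28 Mb apart with 62 protein-coding genes between them. Exons of Necab1 share 410 bases with Gm11837 and those of Necab3 71 bases with 1700003F12Rik, both on the opposite strand, so reads there cannot be told apart if strand was not used. All 7 are protein-coding, with 1041 (Pvalb) to 5237 (Necab1) exon bases.

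The libraries had FPKM denominators (FPKM being fragments per kilobase and per 1e6 fragments in all) of 27.7 to 29.8 in PV and 23.8 to 33.7 in Drd2, in units of 1e6 fragments, so 1 read in a gene of 1 kilobase was worth at most 0.0420 FPKM. Genes above 0 numbered 12873 to 18506 in PV and 15696 to 17559 in Drd2, fewest in PV replicate 7. The receptor gene Drd2 was at 0.0132 FPKM (1 read) in PV replicate 6, with PV replicates 7 and 8 listed at 0, against 42.7, 55.0 and 7.74 FPKM in Drd2 replicates 1, 2 and 3. The glutamate transporter Slc17a6 was at 114 to 144 FPKM in PV and at 108 to 144 FPKM in Drd2, and of 11 mammillary transcription factors 8 were above 0 in at least 1 PV library and 8 in at least 1 Drd2 library, 6 of them in both groups. Sim2 and Nkx2-4 were at 0 in all 3 PV libraries, Lmx1b and Foxa1 in all 3 Drd2 libraries and Barhl1 in all 6. Values above 0 include traces, such as Lmx1b at 0.0876 FPKM in PV replicate 6. Foxb1 was at 4.19 to 24.0 FPKM in PV and 26.4 to 76.4 FPKM in Drd2, without overlap. The 11 genes summed to 39.7 to 114 FPKM in PV and 104 to 166 FPKM in Drd2. Of them, 4 had the higher mean in PV. Blood markers (4 haemoglobin genes and Alas2) summed to 743 to 3204 FPKM in PV and 0 to 12.1 FPKM in Drd2, and mitochondrial DNA made up 9.62% to 31.3% of the FPKM total in PV and 3.74% to 5.20% in Drd2. The blood sum and the mitochondrial share therefore separated the groups as Pvalb, Calb1 and Necab2 did. Of the blood markers, Alas2 alone overlapped, at 3.56, 0.466 and 0 FPKM in PV replicates 6, 7 and 8. In Drd2 replicates 1, 2 and 3 Alas2 was at 0, 0.555 and 0 FPKM. The part of blood and of mitochondrial DNA in the results below was not tested.

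Pvalb was the most abundant of the 7 genes in every PV library. It was at 349, 482 and 563 FPKM in PV replicates 6, 7 and 8, against 10.4, 22.5 and 99.5 FPKM in Drd2 replicates 1, 2 and 3. The groups did not overlap, and the lowest PV library stood 3.51 times above the highest Drd2 library. By rank it was gene 93, 100 and 62 from the top in PV replicates 6, 7 and 8, and gene 4243, 2367 and 657 in Drd2 replicates 1, 2 and 3. The log2 difference was 3.93 ± 0.69 (SE, n = 3 each). The spread within the groups was uneven: the coefficient of variation was 23.2% in PV and 109% in Drd2. Even the lowest Drd2 value rested on 367 recovered reads, so Pvalb was detected in all 6 libraries. In a bulk library, fewer cells of a type and less RNA per cell cannot be told apart.

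**Figure D1:**
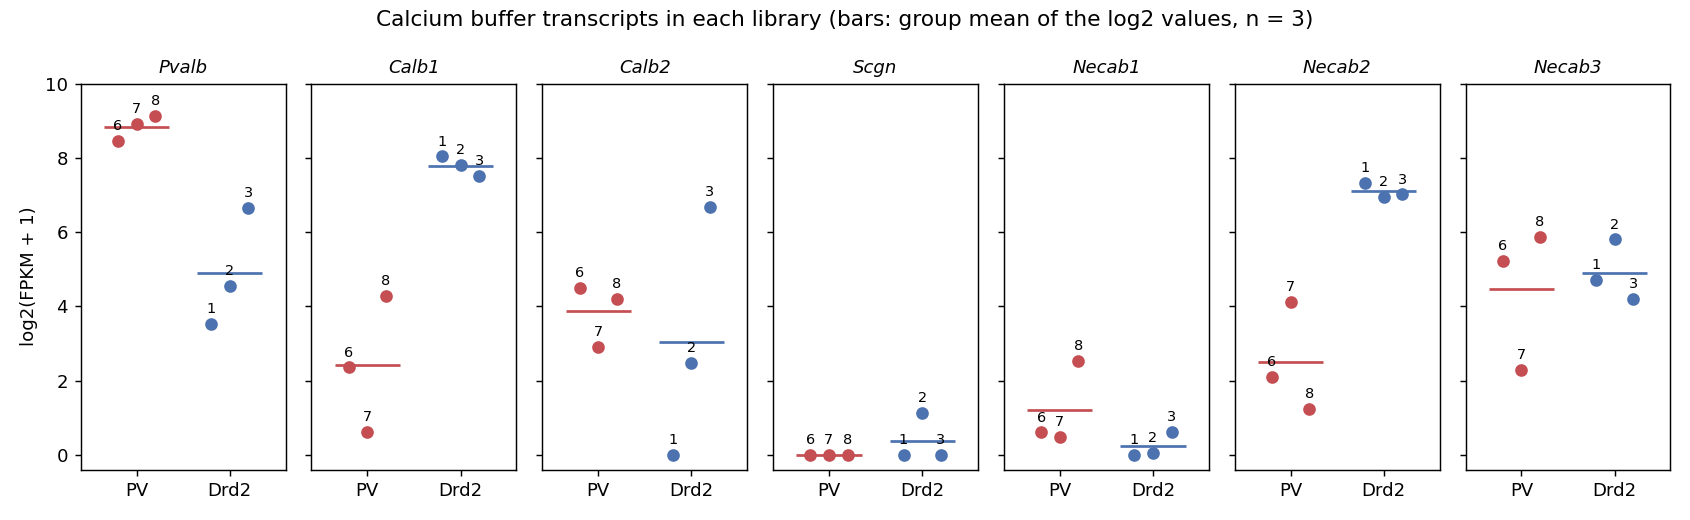
Level of each of the 7 genes as log2(FPKM + 1) in every library, PV left and Drd2 right in each panel, with the replicate number above each point and a bar at the group mean. Pvalb, Calb1 and Necab2 do not overlap between the groups; the other 4 genes do.

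Calb1, the fast buffer calbindin, had the opposite pattern and was the most abundant of the 7 genes in every Drd2 library. It was at 4.12, 0.544 and 18.5 FPKM in PV replicates 6, 7 and 8, against 262, 223 and 181 FPKM in Drd2 replicates 1, 2 and 3. The lowest Drd2 library stood 9.77 times above the highest PV library. The log2 difference was -5.36 ± 0.79 (SE, n = 3 each), and the mean FPKM was 28.7 times as high in Drd2. Within groups the spread was the mirror of that of Pvalb: the highest library was 34.1 times the lowest in PV and 1.45 times the lowest in Drd2. PV replicate 7, the lowest, still held 73 recovered reads of Calb1. By rank Calb1 was gene 7713, 9386 and 2757 in PV replicates 6, 7 and 8, and gene 233, 248 and 347 in Drd2 replicates 1, 2 and 3.

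The ratio of the 2 buffers ordered the libraries without overlap, as it must when neither gene overlaps and they differ in opposite directions. It is given for its size only. Pvalb was 84.8, 886 and 30.4 times Calb1 in FPKM in PV replicates 6, 7 and 8. In Drd2 replicates 1, 2 and 3 it was 0.0399, 0.101 and 0.550 times Calb1. Drd2 replicate 3 was nearest to equal levels, with Calb1 1.82 times Pvalb; it also held the least Drd2 transcript of its group.

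Calb2, the calretinin gene and closest relative of Calb1 in this family, did not follow either pattern. It was at 21.5, 6.53 and 17.4 FPKM in PV replicates 6, 7 and 8, against 0, 4.57 and 101 FPKM in Drd2 replicates 1, 2 and 3. The PV libraries lay between the Drd2 libraries, so the groups overlapped. The log2 difference was 0.82 ± 1.39 (SE, n = 3 each), with the sign of PV above Drd2, while the mean FPKM was 2.32 times as high in Drd2. Drd2 replicate 3 alone carries most of that mean. Its within-group spread on the log2 scale, 2.46, was larger than that of 99.5% of the 11478 genes tested. The difference was -0.71 without Drd2 replicate 1 and 2.63 without Drd2 replicate 3. In Drd2 replicate 3, Calb2 was close to Pvalb (99.5 FPKM) in level, at 101 FPKM. Microglial markers (12 genes) summed to 502 to 1797 FPKM in PV, against 23.9, 118 and 4068 FPKM in Drd2 replicates 1, 2 and 3. Drd2 replicate 3 was thus the highest in Calb2 and in this sum. Tyrobp (387 FPKM) and Trem2 (16.8 FPKM) were instead highest in PV replicate 6, and P2ry12 (63.7 FPKM) in PV replicate 7. In Drd2 replicate 3 they were at 364, 14.2 and 18.6 FPKM. The other markers of the list were highest in Drd2 replicate 3. The part of microglia in the Calb2 level was not tested.

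Scgn was detected in 1 library only. It was listed at 0 in all 3 PV libraries and in Drd2 replicates 1 and 3, and was at 1.19 FPKM (58 recovered reads) in Drd2 replicate 2. A count of 0 allowed at most 0.0622, 0.0669 and 0.0654 FPKM in PV replicates 6, 7 and 8 and 0.0549 and 0.0777 FPKM in Drd2 replicates 1 and 3 (3 reads each; this covers counting error only). No fold is given for it.

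The 3 Necab genes differed from each other. Necab2, which is known to bind the adenosine receptor Adora2a and the metabotropic glutamate receptor mGluR5, was at 3.28, 16.4 and 1.36 FPKM in PV replicates 6, 7 and 8, against 159, 123 and 128 FPKM in Drd2 replicates 1, 2 and 3. The lowest Drd2 library stood 7.50 times above the highest PV library. The log2 difference was -4.61 ± 0.69 (SE, n = 3 each), and the coefficient of variation was 117% in PV and 14.2% in Drd2. Within PV the order of the libraries was the reverse of that for Calb1: replicate 7 held the most Necab2 and the least Calb1, and replicate 8 the least Necab2 and the most Calb1.

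Necab3, which is known to bind the adaptor protein Mint2, was at 36.1, 3.86 and 57.4 FPKM in PV replicates 6, 7 and 8, against 25.4, 54.9 and 17.3 FPKM in Drd2 replicates 1, 2 and 3. The groups overlapped, with means of 32.5 ± 27.0 FPKM in PV and 32.5 ± 19.8 FPKM in Drd2 (SD, n = 3 each). The log2 difference was -0.45 ± 0.88 (SE), and 0.63 without PV replicate 7, which held the least. Necab2 was 0.0908 and 0.0237 times Necab3 in PV replicates 6 and 8. In PV replicate 7, as in all 3 Drd2 libraries, Necab2 was the higher, by 4.26 times in PV replicate 7 and by 6.27, 2.24 and 7.41 times in Drd2 replicates 1, 2 and 3.

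Necab1, known from scattered classes of excitatory and inhibitory neurons, was low throughout. It was at 0.519, 0.393 and 4.81 FPKM in PV replicates 6, 7 and 8, against 0, 0.0318 and 0.545 FPKM in Drd2 replicates 1, 2 and 3. Drd2 replicate 3 lay above PV replicates 6 and 7, so the groups overlapped. The log2 difference was 0.98 ± 0.70 (SE, n = 3 each), and 0.32 without PV replicate 8. Its neighbour on chromosome 4, Calb1, differed in the other direction (-5.36).

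The order of the 7 genes changed between the groups. In PV, Pvalb came first and then Necab3 (replicates 6 and 8) or Necab2 (replicate 7). In all 3 Drd2 libraries Calb1 came first and Necab2 second, followed by Necab3 in replicates 1 and 2 and by Calb2 in replicate 3. In PV the ranges of Necab3, Calb2, Calb1 and Necab2, all below Pvalb, overlapped each other. In Drd2, Calb1 was above Necab2 in each library by 1.65, 1.81 and 1.41 times in replicates 1, 2 and 3.

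The summed FPKM of the 7 genes overlapped between the groups, while the shares of Pvalb, Calb1 and Necab2 in it did not. The shares of Calb2, Scgn, Necab1 and Necab3 overlapped. The sum was 415, 510 and 662 FPKM in PV replicates 6, 7 and 8, against 457, 430 and 527 FPKM in Drd2 replicates 1, 2 and 3. The means were 529 ± 125 FPKM in PV and 471 ± 50.4 FPKM in Drd2 (SD, n = 3 each). Pvalb made up 84.2%, 94.6% and 85.0% of the sum in PV replicates 6, 7 and 8, against 2.29%, 5.23% and 18.9% in Drd2 replicates 1, 2 and 3. Calb1 and Necab2 together made up 1.78%, 3.33% and 3.00% in PV replicates 6, 7 and 8, against 92.2%, 80.6% and 58.6% in Drd2 replicates 1, 2 and 3. Without Pvalb the sum was 27.8 to 99.5 FPKM in PV and 407 to 446 FPKM in Drd2, with no overlap. The Necab genes alone summed to 20.7 to 63.6 FPKM in PV and 146 to 184 FPKM in Drd2. Transcript sums say nothing of how much calcium the proteins bind.

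**Figure D2:**
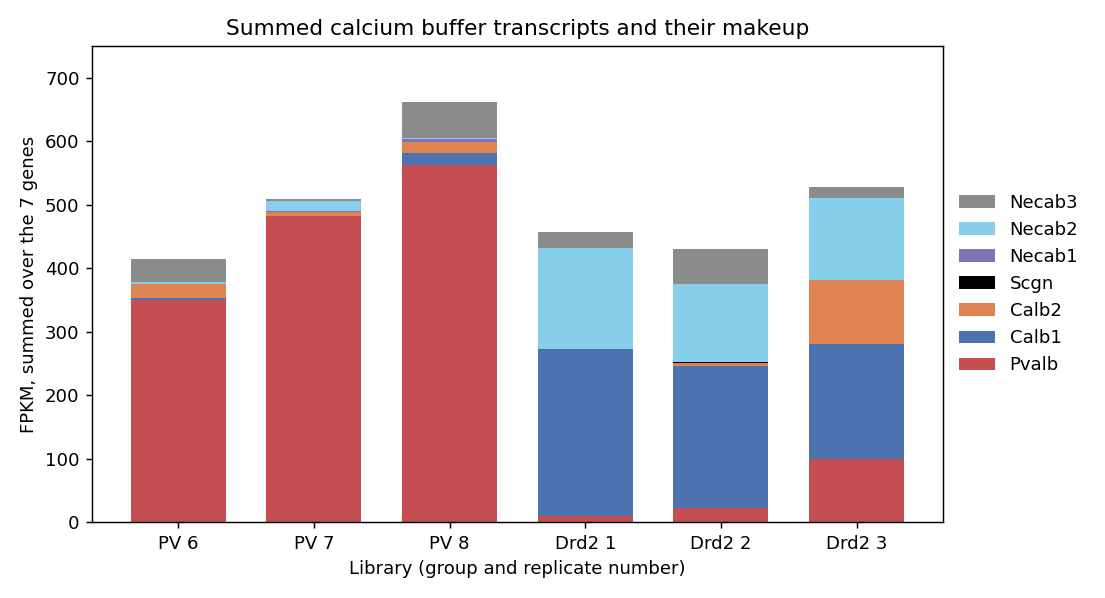
FPKM summed over the 7 genes in each library (bar height), split by gene, with the 3 PV libraries left and the 3 Drd2 libraries right. The sums overlap (415 to 662 FPKM in PV, 430 to 527 FPKM in Drd2), while Pvalb fills 84.2% to 94.6% of the PV bars and 2.29% to 18.9% of the Drd2 bars.

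Set against all genes, 5 of the 7 members passed the filter of at least 1 FPKM in 3 libraries; Scgn and Necab1 did not. By limma across 11478 genes (Benjamini-Hochberg adjusted p under 0.05), 2 members were called in either direction, as were 0.261% of all genes. Calb1 and Necab2 were called lower in PV, as were 0.218% of all genes, and no member was called higher in PV, as were 0.0436% of all genes. Among the members, 1 was above (Pvalb) and 2 were below (Calb1 and Necab2) in PV with no overlap between the groups, as were 5.83% and 13.1% of all genes tested. Nothing is read from these counts, since the members were chosen with the contrast known. In all, 5 genes were higher and 25 lower in PV, against 22 and 46 with quantile normalization and 7 and 15 with limma voom on recovered reads. The median log2 difference of all genes tested was -0.28 (-0.49 as TPM and 0.05 with quantile normalization). Relative to it, Pvalb differed by 4.21, Calb1 by -5.08 and Necab2 by -4.33. Both calls were lost without PV replicate 6 or without any 1 of the Drd2 libraries, and the Necab2 call without PV replicate 8, while the log2 differences without 1 library ran from -6.29 to -4.46 for Calb1 and from -5.43 to -3.99 for Necab2. For Pvalb they ran from 3.23 to 4.80.

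**Figure D3:**
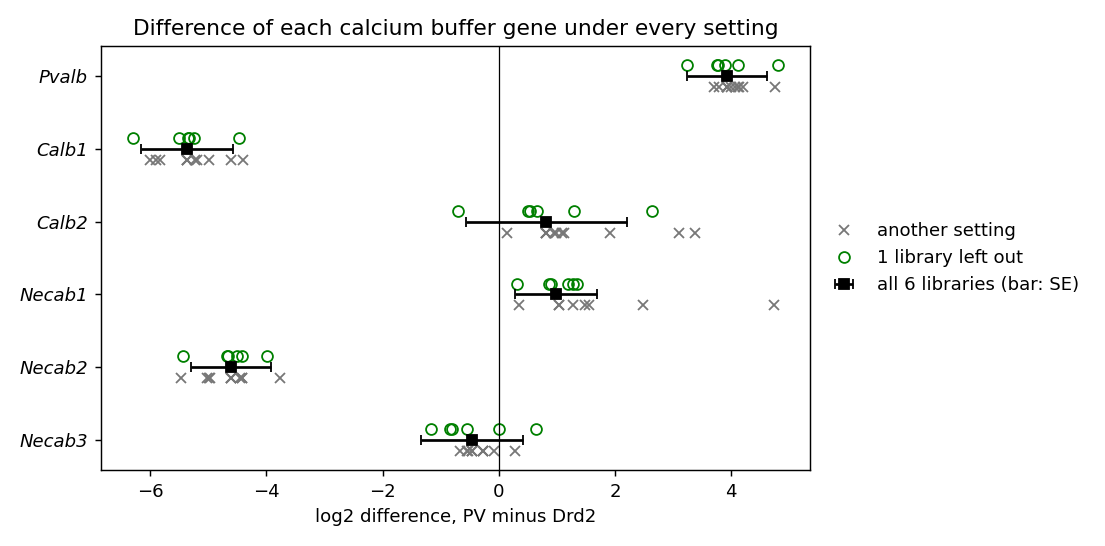
Log2 difference, PV minus Drd2, of the 6 genes with a value in both groups. Squares with SE bars are the values from all 6 libraries, circles leave out 1 library each and crosses use another setting. Pvalb, Calb1, Necab2 and Necab1 keep their side of 0 in every setting shown, while Calb2 and Necab3 cross it. For Pvalb, Calb1 and Necab2, which do not overlap between the groups, leaving out libraries could not change the side.

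Other genes of calcium binding and transport were taken from 9 lists of 117 genes, of which 77 passed the filter. By limma 1 gene was lower in PV (Hpcal1), and 0 were higher; at an unadjusted limma p under 0.05 there were 7 higher and 12 lower of the 77, as were 3.02% and 9.77% of all genes tested, and limma voom on recovered reads called 1 gene higher (Slc24a2). Their median log2 difference was -0.23, close to that of all genes (-0.28), and 10 of the 77 genes were above and 14 below in PV without overlap, as were 5.83% and 13.1% of all genes tested.

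Among 13 tested neuronal calcium sensors, EF-hand proteins that switch on targets when calcium rises, 11 had a difference below 0 (median -0.62), as did 61.6% of all genes tested. Hpcal1 fell to 21.1 ± 11.5 FPKM in PV, against 277 ± 26.9 FPKM in Drd2 (SD, n = 3 each), a log2 difference of -3.78 ± 0.45 (SE; limma adjusted p = 0.0157). That call was lost without Drd2 replicate 1, 2 or 3 (limma adjusted p = 0.163, 0.214 and 0.0934), and with PV replicate 7 and Drd2 replicate 3 left out together (0.0620). Hpcal4 had a log2 difference of -1.85 and Caln1 of -1.93, neither past the threshold.

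Calmodulin, the general calcium switch of the cell, is made from several genes, and the 3 tested had differences of 0.32 to 0.76 with none past the threshold. Calm2 was at 6073 ± 6003 FPKM in PV and 2476 ± 435 FPKM in Drd2 (SD, n = 3 each), and its difference turned to -0.54 with quantile normalization, -0.06 without PV replicate 7 and -0.02 with PV replicate 7 and Drd2 replicate 3 left out together. Among the 4 genes for small proteins that bind calmodulin, Pcp4 was at 28.9, 182 and 77.3 FPKM in PV replicates 6, 7 and 8, against 584, 442 and 418 FPKM in Drd2 replicates 1, 2 and 3. The groups did not overlap, and the log2 difference of -2.66 ± 0.59 (SE) did not pass (limma adjusted p = 0.104); it passed without PV replicate 7 (-3.30, limma adjusted p = 0.0280). Gap43 had a log2 difference of -0.63 and Pcp4l1 of 1.70.

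Pumps and exchangers that carry calcium out of the cell had 9 tested genes, 6 of them with a difference above 0, as had 38.4% of all genes tested. None passed the threshold, and the median was 1.12 (0.56 after rescaling to TPM and 0.16 with no filter). The exchanger Slc24a2 was at 34.3, 34.2 and 42.1 FPKM in PV replicates 6, 7 and 8, against 5.87, 8.75 and 6.86 FPKM in Drd2 replicates 1, 2 and 3. Its log2 difference was 2.22 ± 0.45 (SE; limma adjusted p = 0.0802), and it passed with quantile normalization (0.0474) and limma voom (0.0328). The plasma membrane pump Atp2b2 was at 20.2 ± 4.76 FPKM in PV and 3.33 ± 0.541 FPKM in Drd2 (SD, n = 3 each; limma adjusted p = 0.118). Slc24a4, a relative of Slc24a2, was listed at 0 in all 3 PV libraries, against 20.7, 8.98 and 4.29 FPKM in Drd2 replicates 1, 2 and 3 (limma adjusted p = 0.0851).

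The remaining lists had no gene past the threshold. S100 proteins (7 tested) ran from S100a16 at -2.98 to S100b at 1.84. Their median of 0.39 has no stable sign: it was -0.39 without PV replicate 6, -0.11 without PV replicate 7, 1.11 without PV replicate 8, -0.69 without Drd2 replicate 1 and -0.18 with a filter of 5 FPKM. S100b is also an astrocyte marker, and the 10 astrocyte markers, S100b among them, summed to 598 to 745 FPKM in PV and 177 to 665 FPKM in Drd2. Most of that sum was Aldoc, at 485 to 512 FPKM in PV and 137 to 486 FPKM in Drd2, and 5 of the 10 had the higher mean in PV; Gjb6 was at 3.64 to 12.5 FPKM in PV and 6.15 to 28.2 FPKM in Drd2. The part of astrocytes in the S100b level was not tested. Proteins that hold calcium in the endoplasmic reticulum (12 tested, median -0.50) included calreticulin, Calr, with a log2 difference of -1.02, Pdia4 with -1.67 and calnexin, Canx, with 0.88. Among 8 tested genes of reticulum uptake, release and store-operated entry (median -0.13; 0.19 with quantile normalization and 0.22 with a filter of 5 FPKM), the pump Atp2a2 had 1.34, the release channel Ryr3 -1.43 and the entry channel Orai3 -2.00. Mitochondrial calcium genes (10 tested) ran from -0.52 for Vdac1 to 0.77 for Ghitm, with Micu3 at 0.54. Other EF-hand genes (11 tested, median -0.44, 0.41 without PV replicate 7 and 0.60 without PV replicate 7 and Drd2 replicate 3 together) included Efcab1 with -2.61, Cib2 with -1.66 and Efcab2 with 2.21.

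**Figure D4:**
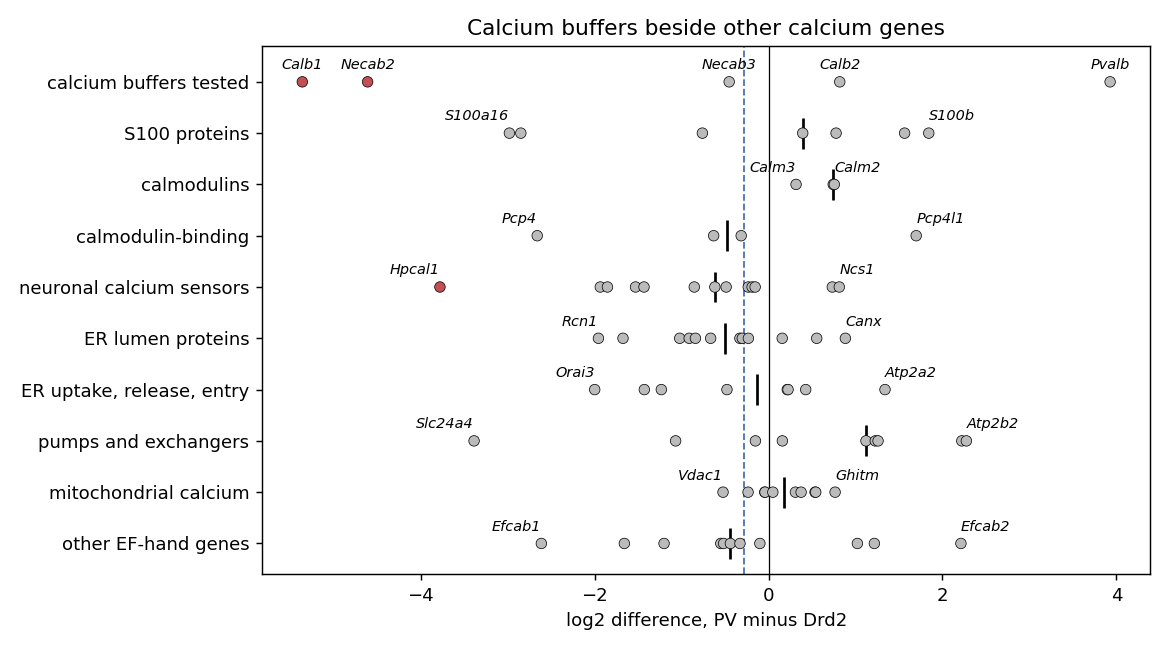
Log2 difference, PV minus Drd2, of the 5 tested calcium buffers (top) and of each tested gene in 9 lists of other calcium genes. Red points passed the limma threshold, vertical ticks are list medians and the dashed line is the median of all genes tested (-0.28). Calb1, Necab2 and Pvalb lie outside the range of the other calcium genes (-3.78 to 2.28). Nothing is read from this, since the members were chosen with the contrast known.

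Genes most like a buffer in pattern were found as those with the smallest root mean square difference between log2(FPKM + 1) profiles over the 6 libraries, each centred on its own mean, out of 10141 named genes. For Pvalb they were Brinp3 (0.66 on the log2 scale), the synapsin gene Syn2 (0.80), the potassium channel gene Kcna2 (0.92), Rab40c (0.95) and Rbms3 (0.95). Syn2 was at 33.8, 45.5 and 54.1 FPKM in PV replicates 6, 7 and 8, against 3.74, 4.89 and 17.2 FPKM in Drd2 replicates 1, 2 and 3.

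For Calb1 the most similar were the iodide transporter gene Slc5a5 (0.86), Echdc2 (0.89), the cortexin gene Ctxn1 (0.91), Crip2 (0.92) and Fxyd7 (0.97), a regulator of the sodium pump. Ctxn1 was at 25.7, 3.49 and 27.4 FPKM in PV replicates 6, 7 and 8, against 313, 236 and 157 FPKM in Drd2 replicates 1, 2 and 3. For Necab2 they were the receptor gene Gpr83 (0.87), Susd2 (0.92), the glutaminyl cyclase gene Qpct (0.93), Plpp2 (0.93) and the neuroglobin gene Ngb (0.94). Calb1 and Necab2 were not in each other's lists: at 1.94 apart, Necab2 was gene 394 in likeness to Calb1, and Calb1 was gene 866 in likeness to Necab2. From Pvalb, Calb1 was 4.87 apart and Necab2 4.48.

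**Figure D5:**
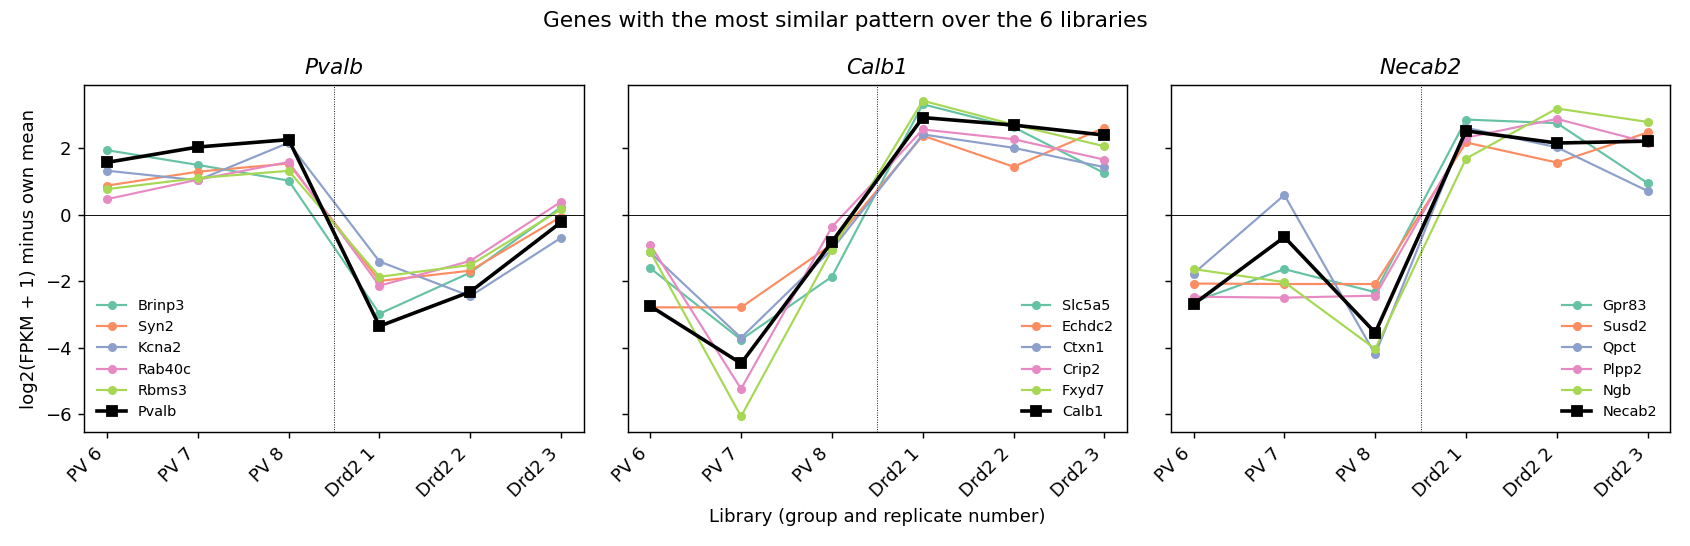
Log2(FPKM + 1) minus each gene's own mean over the 6 libraries, PV left and Drd2 right of the dotted line, for Pvalb, Calb1 and Necab2 (black) and the 5 genes most like each. Among the PV libraries, replicate 7 holds the lowest Calb1 and the highest Necab2; the companions follow each gene because they were picked for that.

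Marker genes of inhibitory neurons, in which parvalbumin and calretinin are best known in cortex, were low. The vesicular GABA transporter Slc32a1 was at 0.768, 2.01 and 0 FPKM in PV replicates 6, 7 and 8, against 0, 0.250 and 0 FPKM in Drd2 replicates 1, 2 and 3. Gad1 was at 1.77, 4.81 and 1.13 FPKM in PV replicates 6, 7 and 8, against 0, 0.523 and 0 FPKM in Drd2 replicates 1, 2 and 3. PV replicate 7 had the most Gad1 and Slc32a1, and the part of such cells in the Pvalb level was not tested.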

How the data were processed

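The deposited table gives FPKM values, made by the authors from each library, for 55414 mouse Ensembl genes with gene names. The submitters' processing notes name STAR, and as builds mm10, hg38 and GRCh38; for the quantifier, its strand setting and its annotation, nothing is given in the sources used here. Members were the 7 rows with the gene names given. Members, lists and tests were chosen with earlier results of these data known.

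Exon lengths came from GENCODE M21, which held 94.0% of the identifiers. Low values times exon length fell on whole reads: 97.9% to 98.8% of those of at most 20 reads lay within 0.01 read of a whole number, which gave the denominators. Library-level numbers cover counting error only.

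The groups were set against each other with limma 3.58.1 under R 4.3.3, on log2(FPKM + 1), with an intensity trend, 2-sided, Benjamini-Hochberg adjustment and a threshold of 0.05, for the 11478 genes that reached 1 FPKM in 3 or more libraries. Folds of weakly expressed genes are understated on this scale. Necab1, under the filter, was fitted with no filter. The procedure was tested on simulated data.

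Genes named were the 7 members, Drd2, the 3 genes with the smallest p of each list of other calcium genes, the 5 most similar genes of Pvalb, Calb1 and Necab2 (predicted, Riken and mitochondrial genes left out), and markers. The promoter motifs were chosen after the data were seen. Alternatives were other pseudocounts, filters, scalings and variance models, limma voom on recovered reads and leaving out each library, with the same genes tested; a fit without both PV replicate 7 and Drd2 replicate 3 was chosen after seeing the data.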

Additional observations from a re-analysis of the deposited data

How the results depend on the processing

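Counts of calls depended strongly on the settings, and log2 differences of Pvalb, Calb1 and Necab2 did not change sign under any of 17 alternatives. For genes without overlap between the groups, another pseudocount or fewer libraries could not change the sign. Filters and the intensity trend do not enter the difference itself. Only the other scalings and voom could have changed the sign. Genes higher in PV numbered 5, against 1 with a pseudocount of 0.1 FPKM, 13 with one of 5 FPKM, 0 with no filter in limma (1509 genes in both directions at an unadjusted p under 0.05), 3 as TPM, 22 with quantile normalization and 1 to 7 without 1 library. Genes lower in PV numbered 25, against 3 and 55 with these pseudocounts, 0 with no filter, 46 with quantile normalization, 11 after rescaling over nuclear protein-coding genes, 40 without the intensity trend, 15 with voom, 13 without PV replicate 7 and Drd2 replicate 3 together and 0 to 52 without 1 library. Of the members, 2 were called lower, against 0 with a pseudocount of 0.1 FPKM, no filter, nuclear rescaling or no trend, 1 as TPM, with median-of-ratios scaling, with voom or without both libraries, and 0 to 2 without 1 library. Pvalb was called, making 1 member higher in place of 0, with a pseudocount of 5 FPKM, median-of-ratios scaling, quantile normalization, voom and without both libraries; without 1 library the count stayed at 0. Of the other calcium genes 1 was called higher with quantile normalization and with voom in place of 0, and none was called lower, in place of 1, with a pseudocount of 0.1 FPKM (0), no filter (0) or without both libraries (0), and 0 to 2 without 1 library. The Calb2 difference was 3.38 with voom (the cause was not tested) and ran from -0.71 to 2.63 without 1 library. Necab1 moved to 2.49 with a pseudocount of 0.1 FPKM and 4.74 with voom, and ran from 0.32 to 1.35 without 1 library. For Necab3 these ran from -1.16 to 0.63. The difference of Calm2 was reversed to -0.54 with quantile normalization and to -0.025 without both libraries, and ran from -0.060 to 1.55 without 1 library. The median of all genes ran from -0.49 as TPM to 0.05 with quantile normalization. No paired analysis was possible because the replicate numbers of the groups (6, 7 and 8; 1, 2 and 3) share no number. Scgn was above 0 in 1 library only, and Necab1 had 57 to 714 recovered reads in PV and 0, 5 and 68 in Drd2 replicates 1, 2 and 3.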
